A study of Mus musculus with 12 samples.

Results

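Podocytes are the epithelial cells that wrap the capillaries of the glomerulus. Their foot processes interdigitate, the gaps between them are bridged by the slit diaphragm, and an actin cytoskeleton holds their shape. Together with the glomerular basement membrane they keep plasma protein out of the urine, and they produce the type IV collagen chain encoded by Col4a5. Genes for these structures are the usual markers of the cell in whole-kidney RNA.

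A list of 30 podocyte genes was followed, chosen by name for slit diaphragm, cytoskeletal, transcription factor and surface or secreted proteins. The array carried a named probe set, a group of probes read as 1 value, for 29 of them, among 22206 probe sets in all and 19505 named genes. Magi2, a scaffold of the slit diaphragm, had no named probe set and was not analysed. Each of the 29 had 1 probe set, so no choice between probe sets was needed.

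The data are Clariom S array signals of whole kidney from 12 mouse samples in 4 groups of 3. One group is wild type on vehicle. The others are labelled Alport, genotype COL4A5 nonsense (G5X) hemi, and received vehicle, the angiotensin receptor blocker losartan or the glucose-lowering drug metformin. Drinking water held losartan at 125 and then 250 µg/mL, or metformin at 2.5 and then 5 mg/mL, from week 6 on. All mice were labelled as 16 weeks old, although the labels run the second dose to week 20. The labels speak of losartan as co-administered, so the groups are named by the drug of the sample title. Strain and sex are not given in the labels. Since no label ties a sample to a mouse of its own, the p-values rest on a spread that may be partly technical. All 3 Alport groups carry the mutation.

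Values are log2 signals, so a difference of 1 unit is a 2-fold one. The lower quartile of all probe sets lay between 4.1825 and 4.25 in the samples and the median between 5.88 and 6.065. Col4a5 itself read 5.06, 5.83 and 5.40 in the wild type samples and 4.44, 4.13 and 4.97 with Alport vehicle, lower in each Alport vehicle sample than in any wild type sample. It read 4.64, 4.24 and 4.09 with losartan and 4.48, 4.48 and 4.50 with metformin. Of the 29 podocyte genes, Trpc6 lay below the lower quartile in all 12 samples, and Ddn and Nebl did so in 2. Inf2, Plekhh2, Foxc2, Pla2r1 and Cdkn1c lay below the median of every sample. Wt1 lay below it in every wild type, losartan and metformin sample and in Alport vehicle sample 2. Without detection calls, small differences of these dim genes have little weight. Nphs1, Synpo, Podxl, Clic5 and Thsd7a, which are podocyte genes, lay above the median in all samples. In whole kidney, more podocytes and more RNA per podocyte cannot be told apart, nor can either be told apart from expression by other cells.

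In vehicle-treated Alport kidneys 11 of the 29 genes rose against wild type, 0 fell and 18 did not pass the test. Of all probe sets 16.1% were called, 8.43% higher and 7.71% lower. At an unadjusted p under 0.05 there were 17 of the 29, of which Arhgap24 was lower, against 6139 of all 22206 probe sets. The risers were Nes, Synpo, Ptpro, Kirrel, Plce1, Sema3g, Tcf21, Npnt, Myo1e, Thsd7a and Plekhh2, with changes from 1.57-fold to 3.44-fold. The median log2 change was 0.54 over the 29 genes (0.34 without wild type sample 1) and -0.03 over all probe sets. A change here means a Benjamini-Hochberg adjusted p under 0.05 over all probe sets in limma. In 14 of the 29 genes the 3 Alport values all lay above the 3 wild type values, against 14.2% of all probe sets, and in 0 of the 29 all lay below, against 15.5%. After centring each sample on its median, the median change was 0.40 over the podocyte genes and -0.17 over all probe sets. The calls over all probe sets then moved from 1871 up and 1711 down to 1451 up and 2842 down. Among the podocyte genes the same 11 rose, and Arhgap24 fell. All 10 measured fibroblast and myofibroblast genes rose in the same comparison, and their part in these rises was not tested.

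**Figure D1:**
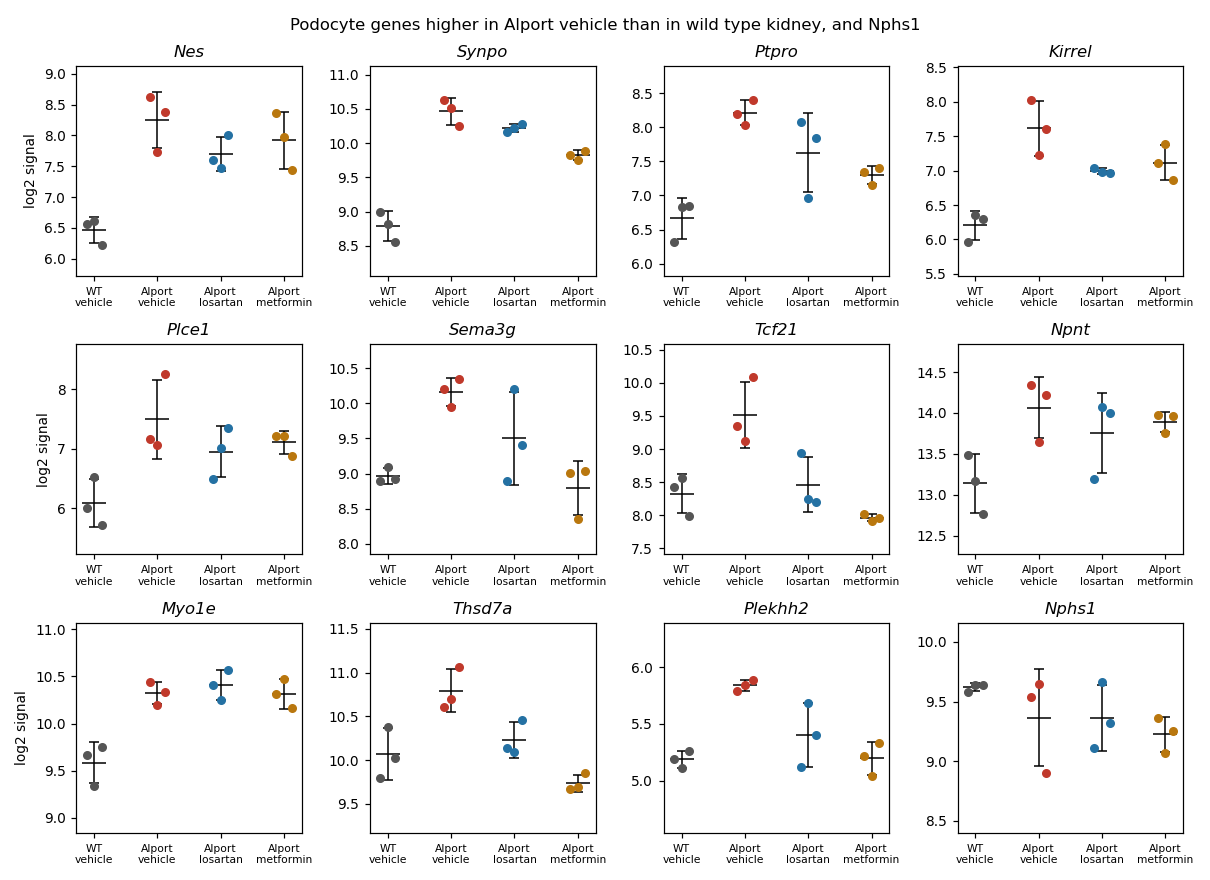
Log2 signal (vertical axis, its range set per gene) in the 3 samples of each group (points, horizontal axis) for the 11 podocyte genes that rose in Alport vehicle against wild type, and for Nphs1; bars are mean and SD, n = 3. The Alport vehicle samples of Synpo sit at 10.25 to 10.63, all above the wild type samples, whereas those of Nphs1 (8.90 to 9.65) overlap them.

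Slit diaphragm genes were divided. Nphs1 encodes nephrin, the adhesion protein that spans the slit. It read 9.58, 9.64 and 9.64 in wild type, 9.54, 9.65 and 8.90 in Alport on vehicle, 9.11, 9.66 and 9.32 on losartan and 9.36, 9.07 and 9.25 with metformin. The Alport vehicle and losartan samples overlapped wild type, Alport vehicle sample 3 being the lowest of the 12, while all 3 metformin samples lay below wild type (-0.39 ± 0.20, limma adjusted p = 0.330, not passing). With Alport vehicle the change of -0.26 ± 0.20 (SE, n = 3 per group, limma adjusted p = 0.469) did not pass, with a 95% interval from -0.69 to 0.17.

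Kirrel encodes Neph1, which binds nephrin across the slit. Its values were 5.97, 6.36 and 6.29 in wild type, 8.02, 7.22 and 7.61 in Alport on vehicle, 7.04, 6.98 and 6.96 on losartan and 7.11, 7.38 and 6.86 with metformin. Every Alport sample, treated or not, lay above every wild type sample. The rise with Alport vehicle was 1.41 ± 0.21 on the log2 scale, or 2.66-fold (limma adjusted p = 0.000177).

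Plce1 encodes phospholipase C epsilon, a signalling enzyme whose loss causes nephrotic syndrome. It read 6.01, 6.52 and 5.73 in wild type, 7.16, 7.07 and 8.25 in Alport on vehicle, 6.50, 7.01 and 7.35 on losartan and 7.22, 7.22 and 6.88 with metformin. The rise was 1.41 ± 0.30 (limma adjusted p = 0.00332), with Alport vehicle sample 3 the highest, and 1.03 without it. The actin adaptor Cd2ap (0.04 ± 0.21) and the dim cation channel gene Trpc6 (0.09 ± 0.16) did not pass (limma adjusted p = 0.942 and 0.789).

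Of 11 cytoskeletal genes 4 rose. Synpo encodes synaptopodin, an actin-associated protein of foot processes. Its signal was 8.99, 8.82 and 8.56 in wild type, 10.63, 10.52 and 10.25 in Alport on vehicle, 10.17, 10.22 and 10.28 on losartan and 9.83, 9.75 and 9.89 with metformin. The wild type samples were the lowest 3 of the 12, and the metformin samples lay below all other Alport samples. The rise of 1.68 ± 0.16, or 3.20-fold (limma adjusted p = 6.67e-06), ranked 70 by p among all probe sets.

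Nes encodes nestin, an intermediate filament protein found in podocytes and also in other cells such as activated vascular and interstitial cells. It read 6.57, 6.61 and 6.22 in wild type, 8.63, 7.74 and 8.38 in Alport on vehicle, 7.60, 7.48 and 8.01 on losartan and 8.36, 7.98 and 7.44 with metformin. The wild type samples stood apart below all 9 Alport samples. The rise was 1.78 ± 0.25, or 3.44-fold (limma adjusted p = 0.000153).

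Myo1e encodes a class I myosin of the foot process membrane. Its values were 9.67, 9.34 and 9.75 in wild type, 10.44, 10.20 and 10.33 in Alport on vehicle, 10.41, 10.25 and 10.57 on losartan and 10.31, 10.47 and 10.16 with metformin, so that the Alport groups overlapped each other and none overlapped wild type. Plekhh2, a podocyte protein that binds actin, read 5.19, 5.11 and 5.26 in wild type, 5.79, 5.84 and 5.89 in Alport on vehicle, 5.12, 5.68 and 5.40 on losartan and 5.22, 5.04 and 5.33 with metformin. Of the Alport groups, only the vehicle group did not overlap wild type. The rises were 0.74 ± 0.17 for Myo1e and 0.65 ± 0.17 for Plekhh2 (limma adjusted p = 0.0063 and 0.0132).

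The other 7 cytoskeletal genes did not pass. The formin gene Inf2 was at 0.55 ± 0.19 (limma adjusted p = 0.0573, and 0.0458 when the dimmest 33.3% of probe sets were left out), with no overlap between the groups. Clic5, which links to ezrin and podocalyxin, read 13.99, 13.98 and 13.89 in wild type, 13.80, 13.96 and 14.06 in Alport on vehicle, 14.06, 14.07 and 14.04 on losartan and 13.65, 13.79 and 13.91 with metformin. All 12 values lay between 13.65 and 14.07, and the interval of the change with Alport vehicle ran from -0.33 to 0.31. Actn4, the actin cross-linker alpha-actinin-4, was at -0.00 ± 0.17 with an interval from -0.35 to 0.35. The Rac regulator Arhgap24 was at -0.37 ± 0.16 (limma adjusted p = 0.150, and 0.0428 at -0.51 after centring each sample). The dim genes Ddn, for dendrin, and Nebl, for nebulette, were at 0.10 and 0.06.

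Of 5 transcription factor genes only Tcf21 passed the test. It encodes a basic helix-loop-helix factor of podocytes and of kidney stroma. Its values were 8.43, 8.56 and 7.99 in wild type, 9.34, 9.12 and 10.08 in Alport on vehicle, 8.94, 8.25 and 8.20 on losartan and 8.02, 7.91 and 7.96 with metformin. The Alport vehicle samples lay above all 9 others, and the metformin samples lay within or below the wild type range. The rise was 1.19 ± 0.25, or 2.28-fold (limma adjusted p = 0.00339).

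Wt1 encodes the zinc-finger factor that is the usual nuclear marker of mature podocytes. It read 5.01, 5.75 and 5.76 in wild type, 6.19, 5.61 and 6.35 in Alport on vehicle, 5.63, 5.54 and 5.93 on losartan and 5.78, 5.50 and 5.57 with metformin. The groups overlapped, and the change of 0.54 ± 0.23 did not pass (limma adjusted p = 0.131, and 0.0325 without Alport vehicle sample 2). Dach1 (0.07 ± 0.19), the forkhead gene Foxc2 (0.09 ± 0.17) and the LIM homeobox gene Lmx1b (-0.10 ± 0.18) did not pass either, with limma adjusted p from 0.797 to 0.875.

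Surface and secreted proteins gave 4 more risers. Ptpro encodes a receptor tyrosine phosphatase of the podocyte's apical membrane. It read 6.32, 6.83 and 6.84 in wild type, 8.20, 8.04 and 8.40 in Alport on vehicle, 8.08, 6.97 and 7.84 on losartan and 7.35, 7.15 and 7.41 with metformin. No treated or untreated Alport sample reached down to the wild type range, and losartan sample 2 was the lowest of the Alport samples. The rise was 1.55 ± 0.24, or 2.93-fold (limma adjusted p = 0.000345).

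Thsd7a and Pla2r1 encode podocyte membrane proteins that are autoantibody targets in membranous nephropathy. Thsd7a read 9.80, 10.38 and 10.03 in wild type, 10.61, 10.70 and 11.07 in Alport on vehicle, 10.14, 10.09 and 10.46 on losartan and 9.67, 9.69 and 9.85 with metformin. The Alport vehicle samples were the highest of the 12. It rose by 0.72 ± 0.19 (limma adjusted p = 0.0141, 0.0707 if Alport vehicle sample 3 was left out and 0.0762 if wild type sample 1 was), while the dim Pla2r1 was at 0.16 ± 0.17 (0.632).

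Sema3g encodes a secreted semaphorin made by podocytes and also by arterial endothelium. Its values were 8.89, 9.09 and 8.92 in wild type, 10.21, 9.95 and 10.34 in Alport on vehicle, 8.90, 10.21 and 9.40 on losartan and 9.01, 8.35 and 9.03 with metformin. The losartan samples were scattered over the whole span between wild type and Alport vehicle. The rise was 1.20 ± 0.27 (limma adjusted p = 0.00534).

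Npnt encodes nephronectin, a basement membrane ligand of an integrin, made by podocytes and tubules. It read 13.49, 13.17 and 12.77 in wild type, 14.34, 13.64 and 14.22 in Alport on vehicle, 13.19, 14.07 and 14.00 on losartan and 13.97, 13.75 and 13.96 with metformin. Only losartan sample 1 fell within the wild type range among the Alport samples. The rise of 0.92 ± 0.25 (limma adjusted p = 0.0182) lost its call without Alport vehicle sample 1 (0.0854), Alport vehicle sample 3 (0.0654) or wild type sample 3 (0.0955).

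Podxl encodes podocalyxin, the charged sialomucin of the podocyte surface, which endothelium also makes. It read 11.44, 11.82 and 11.80 in wild type, 12.16, 12.51 and 11.74 in Alport on vehicle, 12.06, 11.59 and 11.69 on losartan and 11.76, 11.49 and 11.56 with metformin. The groups overlapped and the change of 0.45 ± 0.21 did not pass (limma adjusted p = 0.166). The Slit receptor gene Robo2 (0.33 ± 0.23) and the cyclin-dependent kinase inhibitor gene Cdkn1c (0.54 ± 0.20, with no overlap) did not pass (limma adjusted p = 0.391 and 0.0843, and 0.0421 for Cdkn1c without wild type sample 1).

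**Figure D2:**
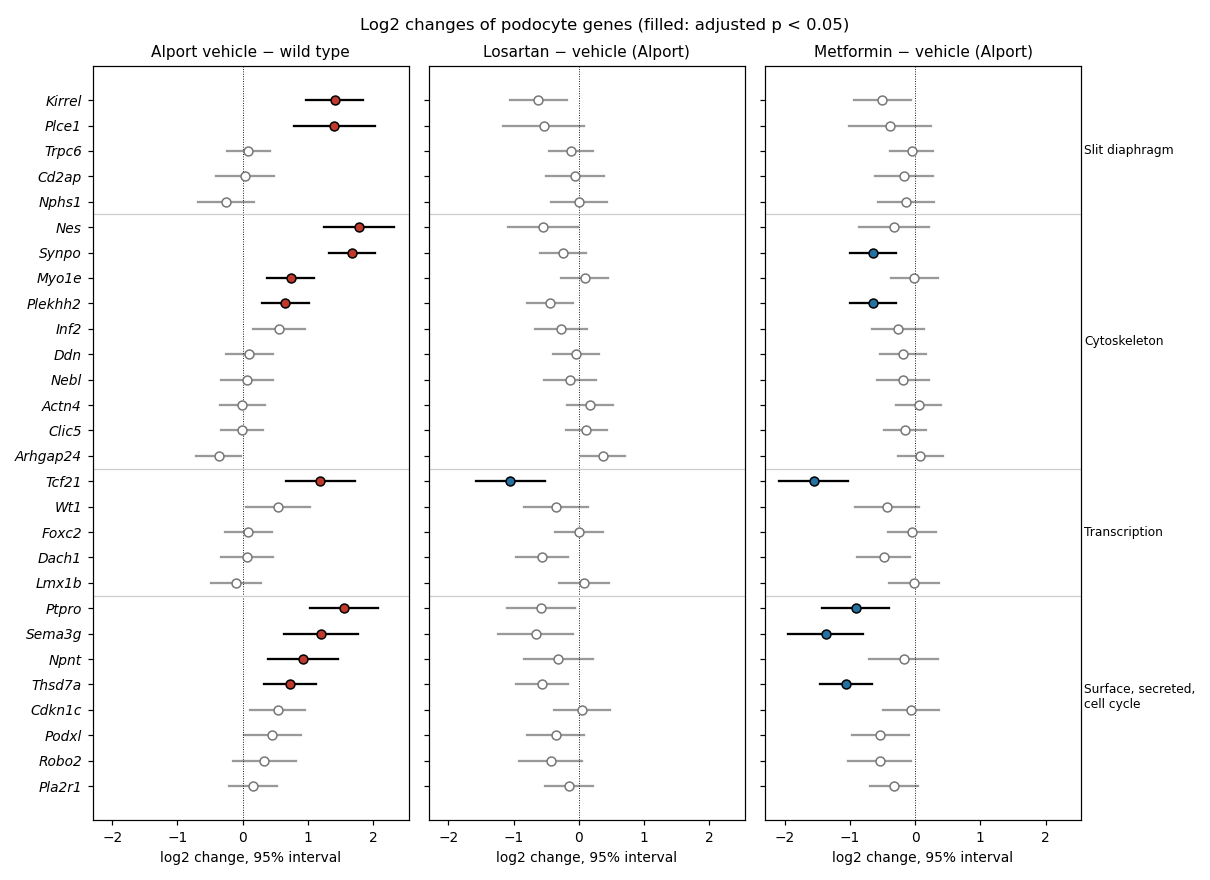
Log2 change (horizontal axis, with 95% interval) of 28 of the 29 podocyte genes (vertical axis, by role) in 3 comparisons; filled points have an adjusted p under 0.05 in limma. Alport vehicle against wild type has 11 filled points to the right of 0, losartan against vehicle has Tcf21 alone, and metformin against vehicle has 6 to the left of 0; the last 2 comparisons share the Alport vehicle samples with the first.

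With losartan, 1 of the 29 genes changed against Alport vehicle: Tcf21 fell by 1.05 ± 0.25, or 2.07-fold (limma adjusted p = 0.0171). Of all probe sets 7.9% were called (4.11% lower, 3.79% higher), or 724 and 1238 probe sets after centring in place of 913 and 842. The call of Tcf21 was lost without Alport vehicle sample 3 (-0.77, limma adjusted p = 0.0731), losartan sample 2 (0.0863) or losartan sample 3 (0.0780). Without Alport vehicle sample 2, Kirrel passed in addition, at -0.82 (limma adjusted p = 0.0205), and without losartan sample 2 Sema3g did, at -1.02 (0.0306). The median log2 change of the 29 genes was -0.28, against 0.01 over all probe sets. It was -0.16 without Alport vehicle sample 1, -0.18 without losartan sample 1 and -0.19 after centring, against 0.11 over all probe sets after centring. The values of 5 genes, Kirrel, Plekhh2, Tcf21, Dach1 and Thsd7a, were lower with losartan without overlap, against 11.3% of all probe sets. Those of 1 gene, Arhgap24 (0.37 ± 0.16, limma adjusted p = 0.204), were higher without overlap, against 11.8%. Kirrel (-0.62 ± 0.21), Thsd7a (-0.56 ± 0.19) and Dach1 (-0.56 ± 0.19) had limma adjusted p from 0.0780 to 0.0869. Synpo was at -0.24 ± 0.16, Nes at -0.55 ± 0.25 and Nphs1 at 0.00 ± 0.20, none of which passed (limma adjusted p = 0.459, 0.231 and 1.0).

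With metformin, 6 of the 29 genes fell against Alport vehicle and 0 rose. Of all probe sets 4.94% were called (2.27% lower, 2.67% higher), or 381 and 827 probe sets after centring in place of 504 and 592. Tcf21 fell by 1.55 ± 0.25, or 2.93-fold (limma adjusted p = 0.00353), Sema3g by 1.37 ± 0.27 (0.00937) and Thsd7a by 1.06 ± 0.19 (0.00573). These 3 calls held in all 13 alternatives run for each, with adjusted p up to 0.0194, 0.0444 and 0.0250. Synpo fell by 0.64 ± 0.16 (limma adjusted p = 0.0353), Plekhh2 by 0.64 ± 0.17 (0.0390) and Ptpro by 0.91 ± 0.24 (0.0428). The last 3 calls were lost when single samples were left out, Synpo when any of the metformin samples or Alport vehicle sample 1 or 2 was omitted, Ptpro without any of the metformin samples or Alport vehicle sample 1 or 3, and Plekhh2 without any 1 of the 6. After centring each sample, Synpo, Plekhh2 and Ptpro had adjusted p of 0.0600, 0.0632 and 0.0520, leaving 3 of the 29 genes called. Synpo was also lost when only the groups compared were fitted (0.0893) and with the replicate number as a block (0.0507), and Ptpro with array weights (0.0635). Plekhh2 was called in 1 of its 13 alternatives, Synpo in 5 and Ptpro in 6. This comparison shares the Alport vehicle samples with that against wild type. Metformin sample 3 had a mean fibroblast and myofibroblast signal of 9.41, against 10.23 and 10.28 in the other metformin samples. Without it 3 of the 29 genes and 266 of all probe sets were called, in place of 6 and 1096, and Tcf21, Sema3g and Thsd7a were those 3. The count of podocyte genes was also 3 without metformin sample 1, metformin sample 2 or Alport vehicle sample 1. The probe sets called were then 897, 647 and 347. Robo2 passed in addition without Alport vehicle sample 2 (-0.80, limma adjusted p = 0.0419). The median log2 change of the 29 genes was -0.29, against -0.01 over all probe sets, and 8 genes were lower without overlap, against 9.88% of all probe sets. Nes (-0.32 ± 0.25), Kirrel (-0.50 ± 0.21), Podxl (-0.53 ± 0.21), Myo1e (-0.01 ± 0.17) and Nphs1 (-0.14 ± 0.20) did not pass, with limma adjusted p from 0.162 to 0.989.

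The stretches before the starts of the 6 genes that fell with metformin are shown because these genes fell in the same comparison. Tcf21 also fell with losartan. RefSeq promoter entries of GRCm38.p6 were found for 22 of the 30 genes and for 5 of these 6, and Nphs1 is added as a gene that did not pass. Each line gives the 150 bases before the start, 5′ to 3′ along the gene, with CANNTG in capitals, the E-box word bound by basic helix-loop-helix factors such as Tcf21.
Tcf21, chr10:22820144-22820293, minus strand: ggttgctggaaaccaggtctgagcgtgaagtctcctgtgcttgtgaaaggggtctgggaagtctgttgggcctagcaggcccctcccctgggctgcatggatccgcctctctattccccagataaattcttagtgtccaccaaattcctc
Sema3g, chr14:31217723-31217872, plus strand: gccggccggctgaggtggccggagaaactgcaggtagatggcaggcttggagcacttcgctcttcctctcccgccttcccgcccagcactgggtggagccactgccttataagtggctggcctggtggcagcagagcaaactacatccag
Thsd7a, chr6:12749254-12749403, minus strand: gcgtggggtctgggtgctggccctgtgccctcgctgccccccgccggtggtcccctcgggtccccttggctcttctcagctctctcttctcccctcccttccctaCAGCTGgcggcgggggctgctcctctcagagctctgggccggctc
Ptpro, chr6:137252149-137252298, plus strand: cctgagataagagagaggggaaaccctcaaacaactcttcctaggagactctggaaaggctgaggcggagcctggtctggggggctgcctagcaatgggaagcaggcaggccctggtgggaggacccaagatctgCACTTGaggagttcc
Plekhh2, chr17:84511745-84511894, plus strand: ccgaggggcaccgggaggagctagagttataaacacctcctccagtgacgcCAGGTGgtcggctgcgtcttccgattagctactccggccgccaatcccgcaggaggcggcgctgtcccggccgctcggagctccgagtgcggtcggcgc
Nphs1, chr7:30459908-30460057, plus strand: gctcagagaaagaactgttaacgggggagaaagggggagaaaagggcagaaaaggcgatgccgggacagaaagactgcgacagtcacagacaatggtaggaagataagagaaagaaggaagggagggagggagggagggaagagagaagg

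The word stood in 3 of the 5 genes, as CAGCTG in Thsd7a, CACTTG in Ptpro and CAGGTG in Plekhh2, and in neither Tcf21, Sema3g nor Nphs1. In the entries of all listed genes it was in 15 of 30 windows (22 genes, some with several starts), and in all 32851 promoter windows of that length it was in 47.7%. The homeodomain core TAAT was in 8 of the 30 windows, against 37.8% of all, and GTGGGNG, a zinc-finger core as read by Wt1, was in 9, against 20.0%, with both strands searched and overlapping matches counted. These matches describe letters in the window and show no binding.

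Set directly against each other, metformin and losartan differed in 0 of the 29 genes (limma) and in 0.045% of all probe sets (0.018% higher and 0.027% lower with metformin). An unadjusted p under 0.05 was reached by 3 of the 29 genes and by 1859 of all 22206 probe sets. Those 3 were Sema3g at -0.71 ± 0.27, Thsd7a at -0.49 ± 0.19 and Synpo at -0.40 ± 0.16, each lower with metformin, with limma adjusted p of 0.487, 0.490 and 0.526. Their 95% intervals ran from -1.28 to -0.14, from -0.89 to -0.09 and from -0.75 to -0.05. The 6 calls with metformin and 1 with losartan are therefore not shown to differ between the drugs. In 5 genes, Synpo, Clic5, Arhgap24, Tcf21 and Thsd7a, all metformin values lay below all losartan values, against 7.74% of all probe sets, and in 0 they lay above, against 5.77%.

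Against wild type, 3 of the 29 genes were higher with losartan, Synpo (1.43 ± 0.16, limma adjusted p = 0.000405), Myo1e (0.82 ± 0.17, 0.0412) and Nes (1.23 ± 0.25, 0.0430), and 0 were lower. Of all probe sets 0.549% were called: 0.401% were higher and 0.149% lower in this comparison. The calls of Myo1e and Nes were each lost when any 1 of the 6 samples was left out, and that of Synpo was kept each time. Ptpro passed in addition without losartan sample 2 (1.30, limma adjusted p = 0.0184), and Kirrel when only the groups compared were fitted (0.79, 0.0442). With metformin 4 were higher than wild type and 0 lower: Synpo (1.03 ± 0.16, limma adjusted p = 0.00219), Nes (1.46 ± 0.25, 0.0043), Kirrel (0.91 ± 0.21, 0.0201) and Myo1e (0.73 ± 0.17, 0.0237), among 4.18% of all probe sets called (2.7% higher, 1.48% lower), or 513 and 486 probe sets after centring in place of 599 and 329. The call of Kirrel was lost without metformin sample 1 or 2 or wild type sample 1 or 3, and that of Myo1e without metformin sample 1 or 2 or wild type sample 2. Plce1 did not pass with metformin (1.02, limma adjusted p = 0.0636). It did when only the groups compared were fitted (0.0235) and with array weights (0.0358). Synpo, Nes and Myo1e thus passed against wild type under both drugs. Of these, only Synpo was called in all 13 alternatives under both. With losartan Myo1e was called in 5 of 13 and Nes in 6. Myo1e was at 0.09 ± 0.17 with losartan and -0.01 ± 0.17 with metformin against Alport vehicle. Tcf21 was at 0.14 ± 0.25 with losartan and -0.36 ± 0.25 with metformin against wild type, and Thsd7a at 0.16 ± 0.19 and -0.33 ± 0.19, none of which passed (limma adjusted p = 0.904, 0.490, 0.835 and 0.381).

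Within groups the 29 genes did not all follow 1 sample. Their mean deviation from the group mean ran from -0.13 in Alport vehicle sample 2, where 7 of the 29 lay above the mean of their group, to 0.09 in Alport vehicle sample 1, where 20 did. The mean log2 signal of the list was 7.84 to 7.98 in wild type, 8.32 to 8.54 with Alport vehicle, 8.15 to 8.23 with losartan and 8.02 to 8.11 with metformin.

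A wider list held 38 further genes of podocyte junctions, adhesion, polarity and signalling, of which 36 had a named probe set. In Alport vehicle 13 of them rose and 2 fell, against 8.43% higher and 7.71% lower of all probe sets, with a median log2 change of 0.46. The 8 with the smallest p were the small heat shock protein gene Cryab (1.55 ± 0.18), the laminin-binding integrin gene Itga3 (1.49 ± 0.19), the sulfatase gene Sulf1 (2.62 ± 0.34), the laminin receptor gene Bcam (1.68 ± 0.24), the tau gene Mapt (-1.17 ± 0.17), the kinase gene Fyn (1.02 ± 0.16), which phosphorylates nephrin, the integrin gene Itgb1 (1.04 ± 0.18) and the dystroglycan gene Dag1 (1.11 ± 0.20), with limma adjusted p from 3.06e-05 to 0.00114. Many of these are made by other kidney cells too. With losartan 10 of the 36 fell and 2 rose, against 4.11% lower and 3.79% higher of all probe sets. With metformin 2 of the 36 fell and 1 rose, against 2.27% lower and 2.67% higher of all probe sets. The fallers with metformin were Fat1 (-0.83 ± 0.23) and Utrn (-0.76 ± 0.20), named after their values were seen.

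**Figure D3:**
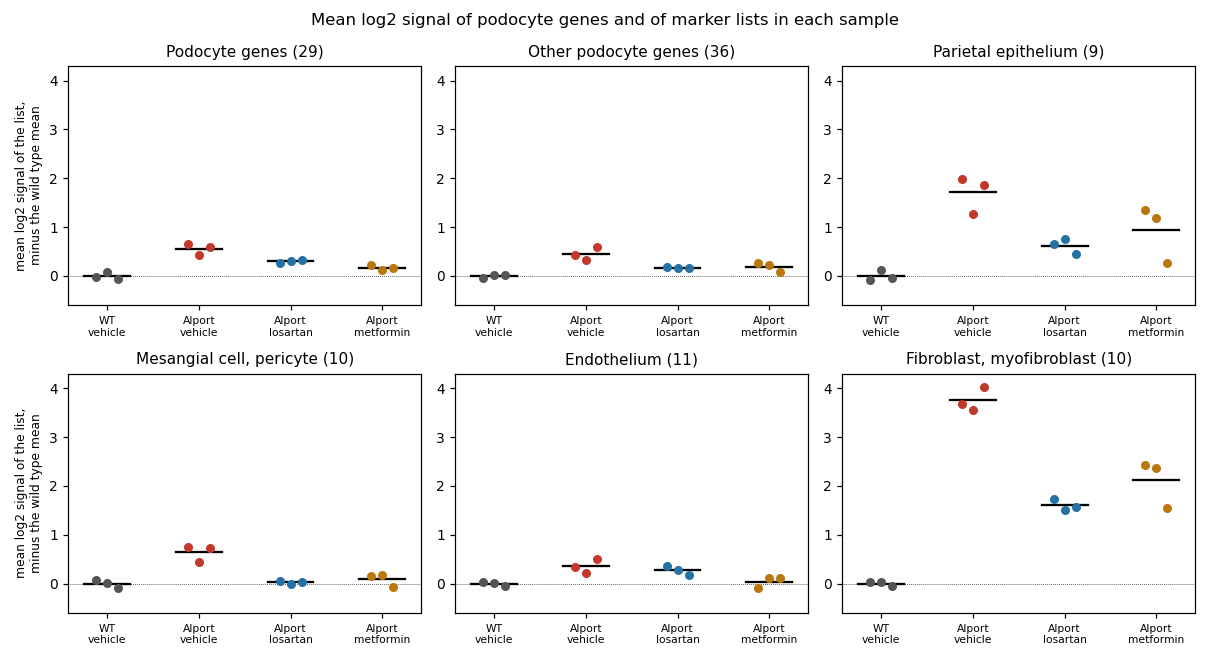
Mean log2 signal of 6 gene lists in each sample (points), as the difference from the wild type mean of the same list (vertical axis, 1 scale for all panels); horizontal bars are group means, n = 3, and numbers in titles count measured genes. From wild type to Alport vehicle the mean goes from 7.89 to 8.45 for the podocyte genes and from 7.86 to 11.6 for the fibroblast list. Metformin sample 3 lies below the other metformin samples in the fibroblast, parietal, mesangial and other podocyte lists, and not in the podocyte or endothelial lists.

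Markers of other cell types moved with the same groups. All 10 measured genes for fibroblasts and myofibroblasts rose in Alport vehicle and fell with either drug. Dcn, the brightest, was at 3.78 ± 0.22 in Alport vehicle and Col3a1, the one with the smallest p, at 6.12 ± 0.31. The mean signal of that list was 7.80 to 7.88 in wild type, 11.42 to 11.87 with Alport vehicle, 9.36 to 9.60 with losartan and 9.41 to 10.28 with metformin. Of 9 parietal epithelial markers 7 rose in Alport vehicle, including Cd44 (4.66 ± 0.56) but not Pax8 (-0.05 ± 0.20), and the list mean was 9.06 to 9.26 in wild type and 10.40 to 11.12 with Alport vehicle. Of 10 mesangial and pericyte markers 5 rose and 1 fell, with Pdgfrb at 2.04 ± 0.23 and Igfbp5 at 0.42 ± 0.21, and the list mean went from 8.57 to 8.72 in wild type to 9.10 to 9.39 with Alport vehicle, 8.64 to 8.71 with losartan and 8.58 to 8.83 with metformin. Of 11 endothelial markers 3 rose and 1 fell, with Plat at 1.98 ± 0.17 and Eng at 0.60 ± 0.19, and list means of 10.53 to 10.62 in wild type, 10.80 to 11.08 with Alport vehicle, 10.75 to 10.94 with losartan and 10.48 to 10.70 with metformin. Of 11 macrophage markers 10 rose (Lyz2 at 6.31 ± 0.49, Laptm5 at 2.55 ± 0.35), and all 9 markers of injured tubules did (Havcr1 at 7.62 ± 0.56, Lcn2 at 9.05 ± 0.68). Of 12 proximal tubule markers 11 fell (Hnf4a at -1.31 ± 0.16, Slc34a1 at -0.56 ± 0.15). With losartan 6 of the 9 parietal, 8 of the 11 macrophage and 6 of the 9 injured tubule markers fell against Alport vehicle, and with metformin 2, 1 and 3 did, while 5 and 4 of the 12 proximal tubule markers rose. Of the 10 mesangial and pericyte markers 4 fell with each drug. Of the 11 endothelial markers 1 fell and 2 rose with losartan, and 2 fell with metformin. Of all probe sets 4.11% were lower with losartan and 2.27% with metformin. The macrophage mean was 6.50 to 6.78 in wild type, 8.63 to 10.07 with Alport vehicle, 7.72 to 8.15 with losartan and 7.93 to 9.28 with metformin. The injured tubule mean was 6.20 to 6.39, 9.98 to 10.88, 8.36 to 9.18 and 8.41 to 10.33 in the same order, and the parietal mean was 9.59 to 9.89 with losartan and 9.41 to 10.48 with metformin. None of these markers was below the lower quartile in all samples, and Krt20 was in 6. The part of these other cells in the changes of Tcf21, Nes, Sema3g and the other podocyte genes was not tested.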

How the data were processed

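Whole-kidney RNA of 12 samples was measured on 1-colour arrays. Per the submitters' processing notes the authors used Transcriptome Analysis Console 4.0. The deposited table holds log2 signals, a scale read from the values. The table is not centred per probe set, and how background, scaling and probe summary were handled is not given in the sources used here. Probe sets were named by the supplied platform annotation, with symbols updated by Entrez identifier against a RefSeq table of GRCm38.p6; 19572 had 1 symbol and 2634 none. No gene coordinates were taken from that table.

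Samples were grouped by title. A mean per group was fitted to all probe sets and 12 samples with limma 3.58.1 in R 4.3.3 (lmFit, eBayes, 8 residual degrees of freedom, no filter), each contrast was tested two-sided, with Benjamini-Hochberg adjustment over 22206 probe sets. Errors are standard errors from this fit, with a median of 0.20. The number of arrays limits the precision. On simulated data for Alport vehicle against wild type, 200 of 22206 probe sets were spiked. The fit called 4% of those spiked at a log2 size of 0.5, 58% at 1 and 98% at 2. In the real comparison 3582 probe sets were called, and the adjusted p depends on how many change. The simulated shares are therefore not those expected for the real comparison. A change that did not pass is still not shown to be absent.

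Of the 29 measured podocyte genes, 1 enters the counts but its values are not reported here. All sample values are printed for genes that changed and for Nphs1, Podxl, Wt1 and Clic5, for the wider podocyte list the 8 smallest p-values, and for each list of another cell type its brightest gene and the one with the smallest p. The genes, lists, rules and tests were chosen with earlier results of these data known, so no list was tested as a set. Alternatives were sample centring, renewed quantile scaling, removal of the dimmest 33.3% of probe sets and a trended robust prior. Others were weights per array, a fit to only the groups compared and the replicate number as a block. Each sample of the groups compared was also left out in turn. Samples of the same replicate number did not deviate together.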

Additional observations from a re-analysis of the deposited data

How the results depend on the processing

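The rises of Nes, Synpo, Ptpro, Kirrel, Plce1, Sema3g, Tcf21, Myo1e and Plekhh2 in Alport vehicle were called in all 13 alternatives run for each, and those of Thsd7a and Npnt in 11 and 10 of 13. No call of a podocyte gene reversed in the alternatives run. Each sample of the groups compared was left out in turn. The podocyte genes called ran from 9 to 12 of 29 for Alport vehicle against wild type. Against vehicle they ran from 0 to 2 for losartan and from 3 to 5 for metformin. The count was 0 for metformin against losartan. Against wild type it ran from 1 to 2 for losartan and from 2 to 4 for metformin. The probe sets called then ran from 2549 to 3756, from 716 to 2073, from 266 to 1320, from 5 to 91, from 37 to 62 and from 346 to 1019 in the same order. Centring left 3 podocyte genes called for metformin against vehicle. Fitting only the groups compared gave 410 probe sets for metformin against vehicle, 3 for metformin against losartan and 285 for losartan against wild type, and array weights gave 17 and 195 for the last 2. The causes were not tested; some of these fits hold fewer samples. A second probe set per gene could not be tried, since no listed gene had one.

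Correlations between deviations of same-numbered samples ran from -0.14 to 0.08, so these samples showed no strong shared deviation. With 3 samples per group this does not settle whether the numbers mark a pairing. With the replicate block 11, 1, 4, 0, 2 and 4 podocyte genes were called, and 3333, 1545, 910, 15, 108 and 803 probe sets. The table used here has no detection calls, so how far dim genes such as Trpc6 stood above background is unknown.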
